A study of Mus musculus with 5 samples.

Results

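The proteasome genes of the array were taken as every gene whose symbol begins with Psma, Psmb, Psmc, Psmd, Psme or Psmg followed by a number, which gave 44 of the 8251 genes that a probe set named singly. Each gene was represented by the probe set with the highest mean over the 5 arrays. Of the 44 genes, 42 passed the filter on low signal and were tested, among 5610 genes that passed. The remaining 2, the ATPase Psmc4 and the scaffold subunit Psmd2, were dim on every array, at normalised signals of 2.51 to 19.1 and of 5.34 to 18.2, and have no test. The activator Psme2 shares its probe sets with a second gene in the annotation and was not analysed here.

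CD44-low CD8+ T cells were enriched from lymph nodes of C57BL/6 mice transgenic for the OT-1 T cell receptor, which recognises an ovalbumin peptide on H-2Kb, and were cultured with latex microspheres carrying that peptide complex and the costimulatory ligand B7-1. Human IL-2 was present in every culture, and murine IL-21 in some of them. Total RNA was turned into biotin-labelled cRNA for 2 arrays of cells harvested at 48 h from cultures lacking IL-21, 2 arrays of 48 h cultures that received it, and a single array of IL-21 cultures at 72 h. The study set out to follow gene expression over the period in which a cytokine given beside antigen and B7-1 programmes CD8 T cells. No 72 h culture lacking IL-21 was analysed here, and the change from 48 h to 72 h is known only in the presence of IL-21. Both comparisons use the same 2 arrays of 48 h with IL-21. The labels call the samples biological replicates without naming mice or cultures, so every p-value measures the spread between these samples, which may be technical.

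The proteasome degrades ubiquitin-tagged proteins. Its 20S core is a barrel of alpha rings, which gate the entry, around beta rings, of which 3 kinds of subunit cut peptide bonds: Psmb6, Psmb7 and Psmb5. The 19S regulatory particle caps the barrel: a ring of ATPases (Psmc) unfolds substrates and feeds them in, and non-ATPase subunits (Psmd) of the base and the lid bind ubiquitin chains and remove them. Interferon-exposed cells and lymphocytes replace the 3 cutting subunits by Psmb9, Psmb10 and Psmb8 to form the immunoproteasome, which favours peptides that fit MHC class I molecules. Other activators (Psme) can take the place of the 19S cap, and dedicated chaperones assist assembly of the core (Psmg) and of the cap (Psmd5, Psmd9, Psmd10).

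All values below are normalised signals: an offset of 1.53 signal units was added, log2 values were quantile-normalised, and group differences are on that log2 scale. Quantile normalisation sets a direction relative to the bulk of probe sets. The deposited arrays had trimmed mean signals of 75.4 and 65.3 without IL-21, 105 and 106 with IL-21 at 48 h, and 65.9 at 72 h, so other scalings are given where they turn a direction. Differences were tested with limma over 7453 probe sets, and a gene was called when its Benjamini-Hochberg adjusted p was under 0.05. The purity of the cells was checked by markers: 9 of the 10 CD8 T cell markers were named on the array, all 9 passed the filter, and their summed signal was 5767 to 6452 on the 48 h arrays and 8526 at 72 h. The summed signal of 4 named B cell markers was 48.7 to 75.1 at 48 h and 72.5 at 72 h, and that of 8 myeloid and dendritic markers 217 to 374 and 316. Cd4 lay between 9.39 and 15.9 at 48 h and at 32.6 at 72 h, and the macrophage marker Lyz2 between 1.81 and 2.99 on all arrays. Others of the myeloid and dendritic list were higher at 72 h. Itgam was at 3.12 to 9.17 at 48 h and 14.8 at 72 h. Itgax was at 12.7 to 23.8 and 41.3, and H2-Ab1 at 58.1 to 72.1 and 139.7. Lyz2 and Itgam did not pass the filter. Of the 6 tested markers of that list, 2 were positive and 4 negative from 48 h to 72 h with IL-21. In a bulk sample fewer cells of a type and less RNA per cell cannot be told apart. The number of arrays limits the precision throughout.

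At 48 h no proteasome gene was called with or without IL-21. The 42 differences ran from -0.35 to 0.34 with a median of 0.01, against -0.01 over all 7453 probe sets, and limma's adjusted p-values were 0.967 or higher. Over the whole array 0% of probe sets were called at 48 h, and 4.39% had an unadjusted p under 0.05, as did 1 of the 42 proteasome genes. The 95% intervals of the single genes, unadjusted and under quantile normalisation, extended at most from -0.71 to 0.74. Larger differences lay outside every interval under that scaling, but on the deposited scaling 10 genes were called higher, Psmd5 at 0.92. Under quantile normalisation 23 differences were positive and 19 negative, but on the deposited scaling all 42 were positive, with the median of all probe sets at 0.57, and scaled on the hybridisation controls all 42 were negative, with that median at -0.43. In 15 genes, 35.7% of those tested, the arrays of the 2 groups did not overlap, 7 higher and 8 lower with IL-21. Over all probe sets 33.8% did not overlap, 15.9% higher and 17.9% lower.

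By subcomplex, the median difference with IL-21 was -0.11 in the alpha ring (7 genes), 0.03 in the cutting beta subunits (3), 0.02 in the other beta subunits (4), -0.00 in the immunoproteasome (3), -0.11 in the ATPases (5) and 0.09 in the non-ATPase subunits of the cap (10). The gene with the smallest unadjusted p was Psma6, an alpha-ring subunit, with signals of 1201 and 1062 without IL-21 and 830 and 947 with it. The IL-21 arrays lay below the others, by a log2 difference of -0.35 (SE 0.13, limma adjusted p = 0.967). The core subunit Psmb5 stood at 503 and 462 without IL-21 and 558 and 473 with it, and the structural subunit Psmb4 at 1008 and 921 against 1000 and 828, and in both genes the groups overlapped. Among the ATPases Psmc6 was at 1387 and 1117 without and 1068 and 1008 with IL-21, a log2 difference of -0.26. The lid subunit Psmd8 showed 220 and 298 against 310 and 310, a difference of 0.28 (SE 0.19). Psmd5, a chaperone of the ATPase ring, read 244 and 245 without and 284 and 339 with IL-21, a log2 difference of 0.34 (SE 0.16, limma adjusted p = 0.967). Psmg4, a core chaperone, read 228 and 177 against 201 and 238, with overlap. None of these differences passed the test.

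From 48 h to 72 h with IL-21, 14 of the 42 tested proteasome genes fell and 0 rose. That is 33.3% of them, where 7.12% of all probe sets were called lower and 4.04% higher. In a fit of the brightest 40% of probe sets, 15 of 41 proteasome genes were called lower, where 10.8% of its probe sets were. Of the 14, 8 were at least 2-fold lower, as were 5.55% of all probe sets. The median difference of the 42 genes was -0.52, against -0.01 over all probe sets, and 35 of the 42 were negative (41 on the deposited scaling, 33 on the hybridisation controls). On the 72 h array 31 of the 42, or 73.8%, lay below all 4 arrays of 48 h, where 33.8% of all probe sets did. The 5 that lay above all 4 arrays were Psmb8, Psmb9, Psmb10, Psmb1 and Psmg3, where 30.4% of all probe sets did. The negative median held under all scalings run, at -1.24 on the deposited values, where the median of all probe sets was -0.58, and at -0.33 on the hybridisation controls, where it was 0.33. The 72 h group is a single array with no spread of its own, and the test takes its spread from the 48 h arrays. All 14 calls were lost when either 48 h array with IL-21 was left out (replicate 1 or replicate 2) or without limma's variance trend, where 0 of the 7453 probe sets were called, and 8 remained without replicate 1 or without replicate 2 of the 48 h arrays lacking IL-21. All 14 differences stayed negative in each of these fits.

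**Figure D1:**
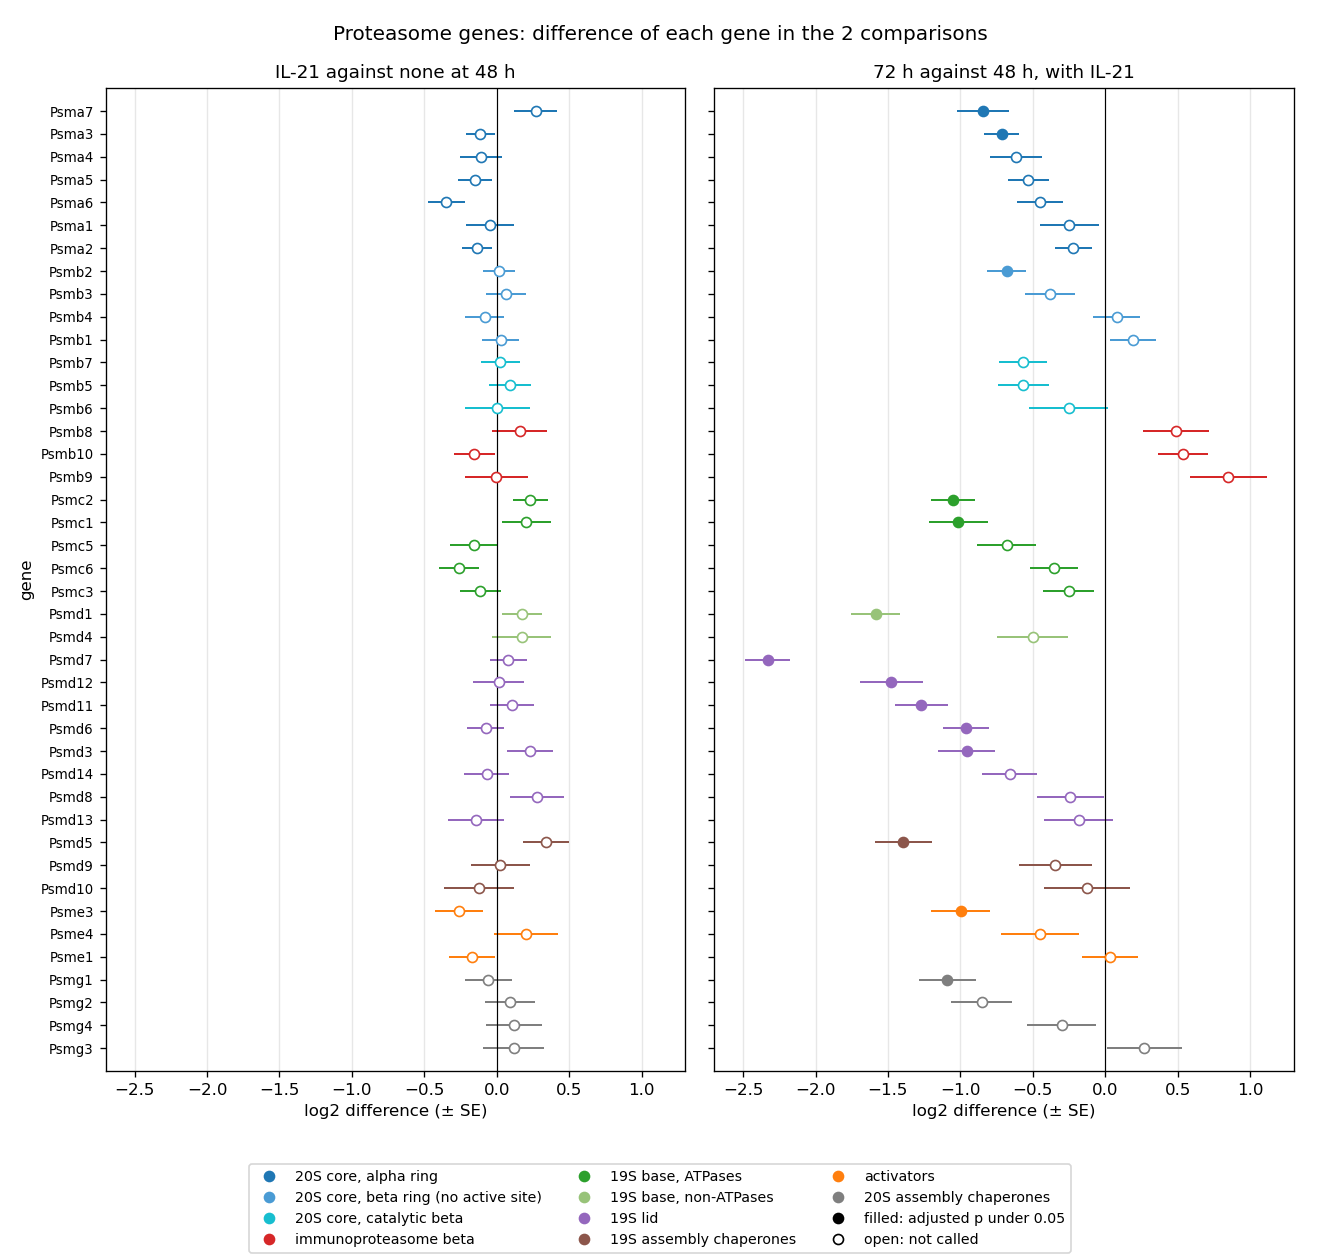
Points show the log2 difference of each of the 42 tested genes, with bars of 1 standard error from limma, for IL-21 against none at 48 h (left) and for 72 h against 48 h with IL-21 (right). Colours mark the subcomplex and filled points an adjusted p under 0.05. All 42 points on the left are open and lie between -0.35 and 0.34, while on the right 14 are filled, all below 0, and under this scaling, quantile normalisation, the 3 immunoproteasome genes lie above 0.

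The regulatory cap held most of the genes that fell: 8 of its 15 tested subunits were called lower, against 7.12% of all probe sets. All 15 differences were negative, with a median of -0.96. In the constitutive core 3 of 14 were called, with 12 negative and a median of -0.49. The difference between the 2 medians was not tested, and subunits are not replicates of a condition. The non-ATPase median lay 0.44 to 0.54 below that of the core in every alternative run, leave-one-out fits included.

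The lid carried 5 of the calls among its 8 genes, where 7.12% of all probe sets were called lower. Psmd7, a scaffold that pairs with the deubiquitinase Psmd14, had signals of 687 and 688 without IL-21, 684 and 770 with IL-21 at 48 h and 144 at 72 h. The 4 arrays of 48 h lay close together and the 72 h array far below them, a log2 difference of -2.33 (SE 0.16, 5.03-fold, limma adjusted p = 0.00928). This was the fourth smallest p of the 7453 probe sets, and its adjusted p ran from 4.2e-07 to 0.0798 over the alternatives. Psmd12 read 214 and 224 without IL-21, 198 and 247 with it at 48 h and 79.4 at 72 h, a fall of 2.79-fold (log2 SE 0.22, limma adjusted p = 0.0164). Psmd11, which together with Psmd12 forms part of the lid's horseshoe, read 545 and 531, then 644 and 521, and 240 at 72 h. It fell 2.41-fold (log2 SE 0.18, limma adjusted p = 0.0162). Its other 2 probe sets gave -1.12, also called, and -0.90, not called. Psmd6 read 584 and 525, then 531 and 520, and 270 at 72 h, a fall of 1.95-fold (limma adjusted p = 0.0208), and Psmd3 fell 1.94-fold (limma adjusted p = 0.0347). The remaining lid genes were not called. Psmd14, which removes ubiquitin chains from substrates, differed by -0.66 (SE 0.19), Psmd8 by -0.24 and Psmd13 by -0.18. Psmd8 (263 at 72 h) and Psmd13 (349) lay within the range of the 48 h arrays. The 95% interval was -2.72 to -1.95 for Psmd7 and -0.80 to 0.32 for Psmd8. This pair was picked after its values were seen, and the difference between the genes was not tested.

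In the base, Psmd1, a non-ATPase subunit, read 436 and 438 without IL-21, 461 and 529 with it at 48 h and 165 at 72 h. Its signals at 48 h were a little higher with IL-21, and the 72 h array lay below all of them, with a fall of 3.00-fold (log2 SE 0.17, limma adjusted p = 0.00983). The ubiquitin receptor Psmd4 differed by -0.50 (SE 0.25) and was not called. Among the ATPases 2 of 5 fell, where 7.12% of all probe sets were called lower. Psmc2 read 493 and 515, then 601 and 581, and 286 at 72 h, a fall of 2.07-fold (log2 SE 0.15, limma adjusted p = 0.0158). Psmc1 read 210 and 258, then 268 and 268, and 133 at 72 h, a fall of 2.02-fold (limma adjusted p = 0.0335). Both had their highest signals in the 48 h cultures with IL-21. The other 3 differed by -0.68 (Psmc5), -0.35 (Psmc6) and -0.25 (Psmc3) and were not called. In each the 72 h array lay below all 48 h arrays, as did 33.8% of all probe sets. The other probe sets of Psmc3 gave -0.60 and -0.26, not called. The ATPase median was -0.68, against -0.49 in the constitutive core. With the mean of a gene's probe sets it was -0.37, against -0.42 in the core, so its position depends on the probe set choice.

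In the alpha ring all 7 genes lay below the 48 h arrays at 72 h, as did 33.8% of all probe sets. Of the 7 genes 2 were called lower, against 7.12% of all probe sets. Psma3 read 1508 and 1629 without IL-21, 1436 and 1458 with it at 48 h and 882 at 72 h, a fall of 1.64-fold (log2 SE 0.12, limma adjusted p = 0.0228), and Psma7 fell 1.79-fold (limma adjusted p = 0.0367). The other 5 differed by -0.22 (Psma2) to -0.62 (Psma4), and Psma2 turned to 0.04 on the hybridisation controls. Of the beta subunits without a cutting site, Psmb2 fell from 976 and 906 at 48 h with IL-21, where the arrays without it read 925 and 939, to 587 at 72 h, which is 1.60-fold (limma adjusted p = 0.0312). Psmb1 (0.19) and Psmb4 (0.08) differed upward and Psmb3 (-0.38) downward under quantile normalisation, without a call, while Psmb1 and Psmb4 were negative as well on the deposited scaling (-0.52 and -0.63) and with arrays centred on their medians (-0.11 and -0.22).

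**Figure D2:**
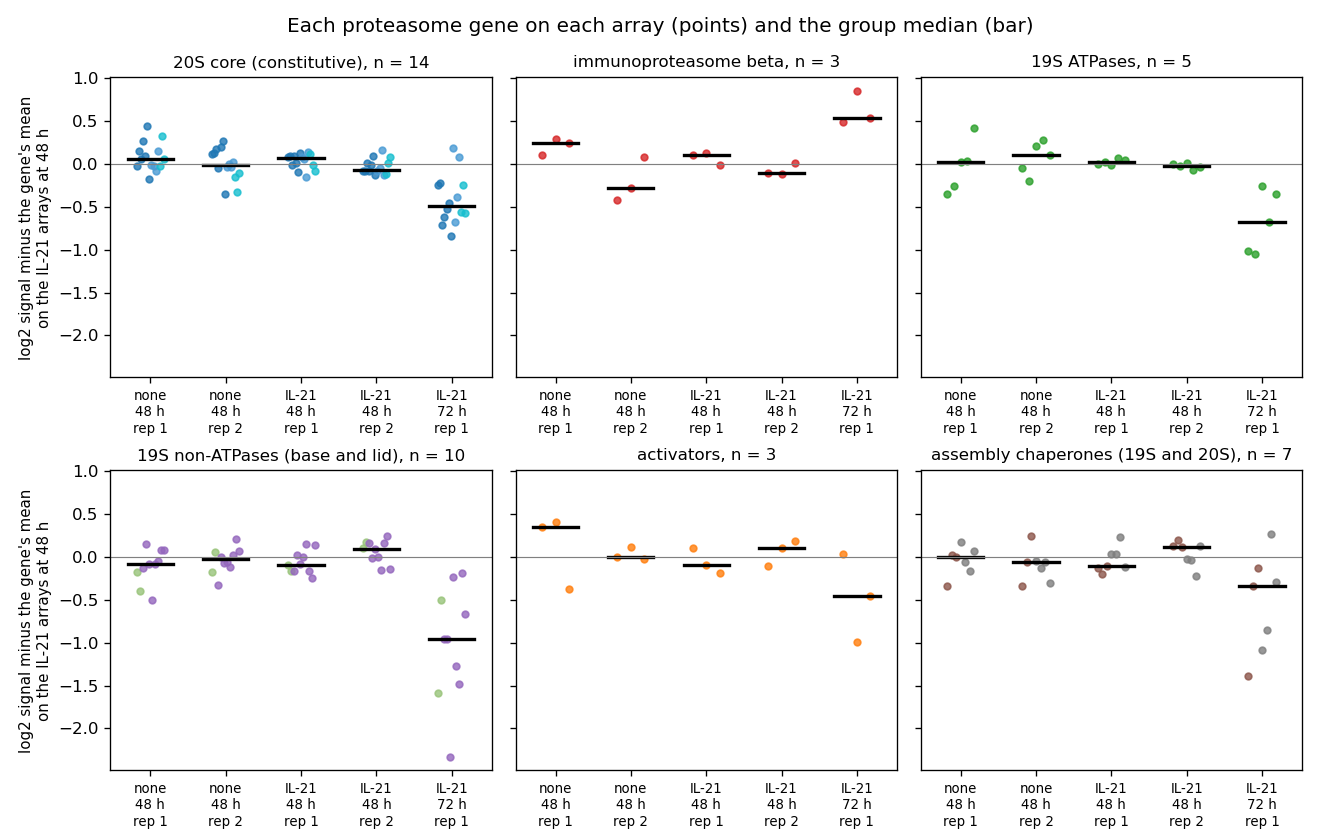
Each point is 1 gene on 1 array, as its normalised log2 signal minus its mean on the IL-21 arrays at 48 h, in 6 groups of subunits, and the bar is the median of the group. Each gene averages 0 over the IL-21 arrays at 48 h by construction. At 72 h the medians are -0.49 in the constitutive core, -0.68 in the ATPases, -0.96 in the non-ATPases and, under the quantile normalisation shown, 0.54 in the immunoproteasome.

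The cutting subunits and their immunoproteasome counterparts differed in opposite directions at 72 h under quantile normalisation, though none of the 6 was called and on the deposited scaling Psmb9 (0.15) alone of the 3 counterparts stayed positive. Psmb6 read 683 and 434 without IL-21, 542 and 551 with it at 48 h and 459 at 72 h. Its counterpart Psmb9 read 578 and 388, then 516 and 434, and 852 at 72 h. The 72 h value of Psmb6 lay within the 48 h range and that of Psmb9 above it, with log2 differences of -0.25 (SE 0.27) and 0.85 (SE 0.26, 95% interval 0.20 to 1.49, limma adjusted p = 0.0985). Psmb7 read 544 and 489, then 496 and 555, and 354 at 72 h, and its counterpart Psmb10 read 326 and 291, then 274 and 279, and 401. At 72 h Psmb7 was below and Psmb10 above all 48 h arrays, with log2 differences of -0.57 (SE 0.17) and 0.54 (SE 0.17, limma adjusted p = 0.107). Psmb5 had 503 and 462, then 558 and 473, and 347 at 72 h, and its counterpart Psmb8 had 1189 and 830, then 1189 and 1033, and 1555. Again the constitutive gene was below and the immunoproteasome gene above all 48 h arrays, by -0.57 (SE 0.18) and 0.49 (SE 0.23, limma adjusted p = 0.238). Over all probe sets, 33.8% lay below and 30.4% above all 48 h arrays at 72 h.

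The scaling between arrays largely cancels in a ratio within an array. Relative to the 48 h mean with IL-21, the log2 ratio of immunoproteasome to constitutive gene at 72 h was 1.10 for Psmb9 over Psmb6, 1.11 for Psmb10 over Psmb7 and 1.06 for Psmb8 over Psmb5, or 2.15-, 2.15- and 2.08-fold. On the 4 arrays of 48 h the same ratios lay between -0.14 and 0.14, -0.07 and 0.18, and -0.26 and 0.13. All 3 ratios were therefore higher at 72 h than on any 48 h array, and on the deposited scaling they were 1.09, 1.11 and 1.22. A ratio within an array shows unequal change and does not say which partner moved. With 1 array against 4 the smallest two-sided exact permutation p is 0.2, so no single ratio could pass 0.05. IL-21 at 48 h moved the ratios by -0.01, -0.18 and 0.07. The median of the 3 immunoproteasome genes lay 0.95 to 1.13 above that of the constitutive core in every alternative run. The median by itself was 0.54 under quantile normalisation but -0.07 on the deposited scaling, 0.34 with arrays centred on their medians and 0.83 on the hybridisation controls, where Psmb9 was called higher (1.06, limma adjusted p = 0.0305). Psmb5 has a second, dim probe set that read 35.2 at 72 h and differed by 0.02 (SE 0.29), so the ratio for that pair rests on the brighter one.

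**Figure D3:**
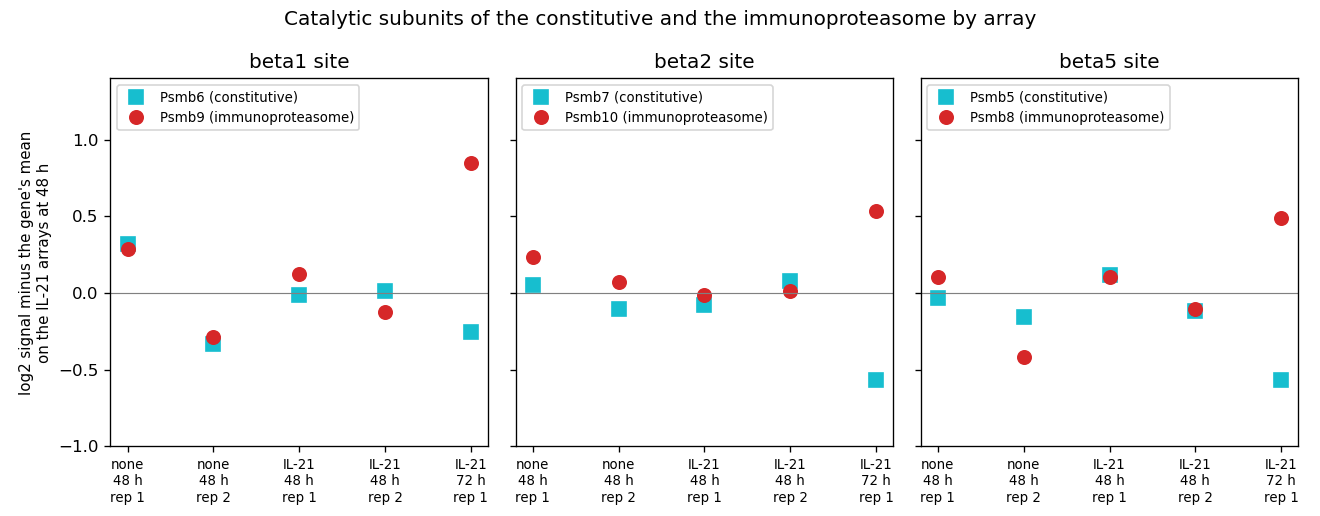
Squares show the constitutive and circles the immunoproteasome subunit of each cutting site on each array, as the normalised log2 signal minus the gene's mean on the IL-21 arrays at 48 h. On the 48 h arrays the partners lie close together, and at 72 h they are apart by 1.10, 1.11 and 1.06.

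Antigen-presenting cells also hold immunoproteasomes. Of 6 tested myeloid and dendritic markers 4 were negative at 72 h, with a median of -0.49: Cd74 (-0.37), H2-Eb1 (-0.78), Cd14 (-0.61) and Csf1r (-0.80) were not called, nor was Itgax, which was positive. The class II gene H2-Ab1 rose from 60.2 and 58.1 at 48 h with IL-21 to 139.7 at 72 h (limma adjusted p = 0.0256), a call lost on the deposited scaling (0.58, limma adjusted p = 0.209). Scaled on the hybridisation controls, 3 of the 6 myeloid and dendritic markers were positive and 3 negative, with a median of -0.09. Itgax (1.76) and H2-Ab1 (1.485) were called higher under that scaling. Of the 9 CD8 T cell markers 5 were positive and 4 negative, with a median of 0.12 that was -0.55 on the deposited scaling. Cd3g (1.78), Cd3d (418 and 445 to 1135) and Thy1 (0.58) rose, the last not called on the deposited scaling (0.05), while Cd8a (-0.51), Cd5 (-0.52), Cd247 (-0.33) and Cd2 (-0.18) were not called. Cd247 (0.005) and Cd2 (0.01) turned positive on the hybridisation controls. The part of these markers in the ratios was not tested. Psmb8 and Psmb9 also read higher on replicate 1 than on replicate 2 in both 48 h groups. The class I transporter gene Tap1, their neighbour, showed the same order, at 780 and 450 without IL-21 and 748 and 353 with it, and 859 at 72 h.

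Of the assembly chaperones, Psmd5 fell from 284 and 339 at 48 h with IL-21 (244 and 245 without) to 118 at 72 h, 2.63-fold (log2 SE 0.20, limma adjusted p = 0.0152). It is a chaperone of the ATPase ring, and a link between its fall and those of ATPases was not tested. Psmd9 and Psmd10, the other chaperones of the cap, differed by -0.34 and -0.13 and were not called. Psmd10 turned positive on the hybridisation controls (0.29). Psmg1, which forms a pair with Psmg2 to build the alpha ring, read 273 and 233 without IL-21, 247 and 238 with it at 48 h and 114 at 72 h, a fall of 2.13-fold (limma adjusted p = 0.0246). Psmg2 differed by -0.85 (SE 0.21, limma adjusted p = 0.0547), just short of the threshold. The partners of the other pair differed by 0.27 (Psmg3) and -0.30 (Psmg4), though Psmg3 was at -0.43 on the deposited scaling and -0.02 with arrays centred on their medians. Of the activators, Psme3, the nuclear cap that works without ubiquitin, read 460 and 377, then 324 and 372, and 174 at 72 h, a fall of just under 2-fold (log2 SE 0.20, limma adjusted p = 0.0339). Psme1, an interferon-induced cap subunit, read 1146 and 895, then 967 and 836, and 920 at 72 h, within the 48 h range, with a log2 difference of 0.03 (SE 0.19) that was -0.66 on the deposited scaling and -0.25 with arrays centred on their medians. Psme4 differed by -0.45 (SE 0.27) without a call.

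**Figure D4:**
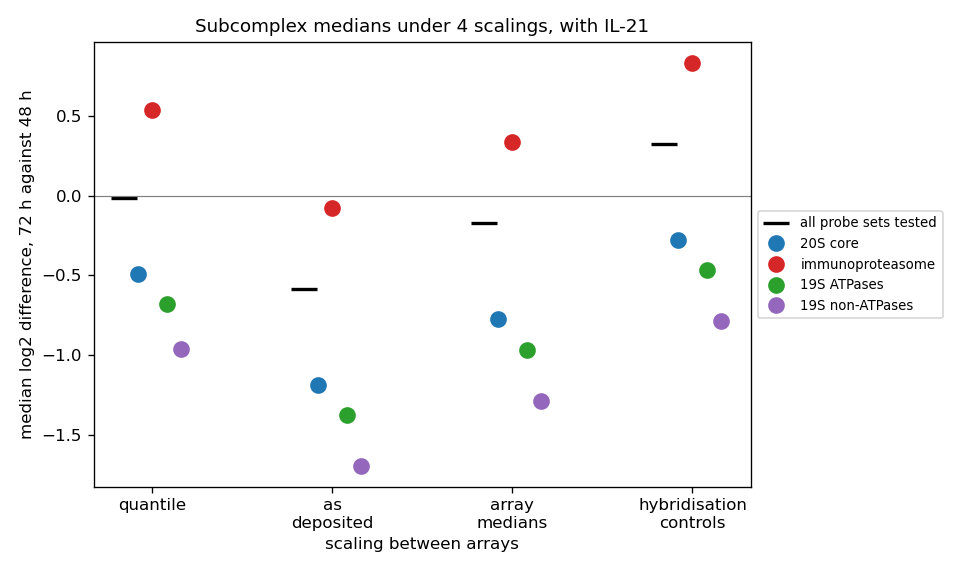
Points give the median log2 difference of 72 h against 48 h with IL-21 for 4 groups of subunits under each of 4 scalings between arrays, and the dash gives that of all probe sets tested. The level shifts with the scaling, and in each of the 4 the non-ATPases lie lowest and the immunoproteasome highest.

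Genes around the proteasome were described from lists. Of 15 other proteasome proteins 9 were on the array, and 2 fell at 72 h, where 7.12% of all probe sets were called lower. The median over the 9 was -0.71. On the hybridisation controls 0 of the 9 were called (limma), with a median of -0.51. Both are deubiquitinases that dock on the 19S cap. Usp14 went from 127 and 109 at 48 h with IL-21 (122 and 115 without) to 49.3, a log2 difference of -1.25 (SE 0.22, limma adjusted p = 0.0246), and Uchl5 from 159 and 137 (144 and 148 without) to 71.5, a difference of -1.05 (limma adjusted p = 0.0333). Pomp, which completes the core, differed by -0.88 (limma adjusted p = 0.0562). Nfe2l1, the transcription factor that raises proteasome genes when proteasome activity drops, differed by -0.21 and was not called. Of the genes for ubiquitin and delivery of substrates, 11 of 23 were on the array and 0 were called (limma), with 10 of 11 differences negative and a median of -0.46 (7 negative and -0.14 on the hybridisation controls). The 3 of smallest p were the ubiquitin-conjugating enzyme Ube2n (-0.69), the shuttle factor Rad23b (-0.75) and the ligase scaffold Cul1 (-0.63).

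Class I molecules present the peptides that proteasomes make. Of the 11 tested genes of class I peptide supply 0 were called at 72 h, 7 were positive and the median was 0.07, which turned to -0.56 on the deposited scaling and -0.15 with arrays centred on their medians. The transporter subunit Tap2 read 94.5 and 86.7 without IL-21, 85.2 and 82.6 with it at 48 h and 156 at 72 h, a log2 difference of 0.89 (SE 0.21, limma adjusted p = 0.0513), while Tapbp differed by 1.18 (SE 0.55) and the peptidase Tpp2 by -0.65 (SE 0.40). Of the interferon-linked regulators 2 of 6 rose, where 4.04% of all probe sets did, and both are receptor chains: Ifngr1 from 32.1 and 37.0 at 48 h with IL-21 to 115 (limma adjusted p = 0.0181), and Ifnar1 from 48.3 and 33.3 to 101 (limma adjusted p = 0.0476), a call lost on the deposited scaling (0.72, limma adjusted p = 0.21). Irf8, a transcription factor of the same family as Irf1, was the negative member, at -0.85 (SE 0.50), and was not called. Irf1, a transcription factor known to drive immunoproteasome genes, read 195 and 176 with IL-21 at 48 h and 284 at 72 h, and it was not called (0.62, SE 0.25, and -0.12 on the deposited scaling). At 48 h limma called 0 genes of these 4 lists.

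Upstream sequence was compared because the 14 called genes fell together and none of the immunoproteasome genes was among them. RefSeq windows of 250 bases before the start, on GRCm38.p6, were matched for 37 of the 44 genes, in 39 windows. Psmd7 was among those without a match. Motifs were searched on both strands: TGACNNNGC, the core of the element bound by Nfe2l1; CCAAT; TTCNNNGAA, the element of STAT factors, through which IL-21 signals; and GAAANNGAA, the core of the interferon-stimulated response element. TGACNNNGC was in 12.8% of the proteasome windows (Psmb5, Psmb6, Psmc6, Psmd12 and Psmd9) and in 10.2% of all 32851 windows, and CCAAT in 33.3% and 33.8%. TTCNNNGAA was in 5.13% (Psmb8 and Psmg1) against 7.02%, and GAAANNGAA in 7.69% (Psmb3, Psmd4 and Psmd9) against 7.13%. The shares in the proteasome windows were read as a description only, beside those of all windows. Among the 12 windows of genes that fell, 1 held TGACNNNGC and 5 held CCAAT. A match is a run of letters and not a measured site. The windows below belong to a pair of called cap genes, Psmd12 at chr11:107479278-107479527 (plus strand) and Psmd1 at chr1:86064369-86064618 (plus strand), and to a pair of immunoproteasome genes, Psmb8 at chr17:34197945-34198194 (plus strand) and Psmb9 at chr17:34187331-34187580 (minus strand). Each runs 5′ to 3′ towards the start site, with capitals for a motif match. In Psmd12 they mark TGACNNNGC read on the other strand, in Psmb8 TTCNNNGAA and in Psmb9 CCAAT read on the other strand. Psmd1 held no match, and no matches overlap.
Psmd12: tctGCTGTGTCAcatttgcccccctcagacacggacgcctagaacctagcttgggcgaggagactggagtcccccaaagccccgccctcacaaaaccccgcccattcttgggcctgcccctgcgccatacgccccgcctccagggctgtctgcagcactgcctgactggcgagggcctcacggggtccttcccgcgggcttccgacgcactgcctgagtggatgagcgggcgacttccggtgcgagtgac
Psmd1: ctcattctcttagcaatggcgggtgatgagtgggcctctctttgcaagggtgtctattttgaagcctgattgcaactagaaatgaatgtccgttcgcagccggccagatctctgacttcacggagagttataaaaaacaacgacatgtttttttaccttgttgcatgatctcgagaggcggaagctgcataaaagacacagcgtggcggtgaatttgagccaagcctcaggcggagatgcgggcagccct
Psmb8: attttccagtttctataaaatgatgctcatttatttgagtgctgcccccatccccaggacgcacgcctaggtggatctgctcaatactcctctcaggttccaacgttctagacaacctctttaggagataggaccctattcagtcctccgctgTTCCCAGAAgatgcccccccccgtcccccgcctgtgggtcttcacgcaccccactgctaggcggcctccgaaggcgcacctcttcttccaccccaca
Psmb9: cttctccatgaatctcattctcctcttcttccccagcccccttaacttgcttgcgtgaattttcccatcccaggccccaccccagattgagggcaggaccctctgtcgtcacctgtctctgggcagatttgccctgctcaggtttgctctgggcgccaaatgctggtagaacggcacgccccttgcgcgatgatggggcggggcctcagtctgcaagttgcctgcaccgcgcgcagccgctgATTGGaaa

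The Psmb9 window overlaps that of Tap1, which lies head to head with it, over 225 bases, so this stretch precedes both genes. Their 72 h differences were 0.85 (SE 0.26) and 0.74 (SE 0.49), neither called.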

How the data were processed

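The deposited values are signal intensities on a linear scale (MAS5, per the submitters' processing notes). No version or scaling target is given in the sources used here, and the deposited arrays were not at a common level. All 5 columns were matched to samples by name. Probe sets were named from the platform annotation, updated to the GRCm38.p6 gene table (10817 of 10833 singly named probe sets matched). An offset of 1.53, the 10th percentile, was added before log2, which understates differences of dim probe sets. The 12422 probe sets that were not controls were quantile-normalised, since the values proved to be unscaled, and 7453 with a mean log2 signal above the 40th percentile were kept.

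Group means of the 3 groups were fitted with limma 3.58.1 in R 4.3.3 (2 residual degrees of freedom, variance trend, Benjamini-Hochberg adjustment over the 7453), after the procedure was tested on simulated data. Values in every array were given for the 12 called genes of smallest p, the cutting subunits and their counterparts, Psme1, and the gene of smallest p at 48 h in each subcomplex; the lists gave their called genes and the 3 of smallest p. Genes outside these were named after their values were seen. The members and lists were chosen with earlier results of these data known. Of the 42 tested genes, 8 had several probe sets, and 8 chosen probe sets (Psma3, Psmb4, Psmb5, Psmb7, Psmc3, Psmd9, Psmd12 and Psmg3) are of design classes that may also bind related sequences. Alternatives covered scaling, offset, filter, variance model, probe set choice, samples and a replicate block.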

Additional observations from a re-analysis of the deposited data

How the results depend on the processing

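All 14 genes called lower at 72 h kept a negative difference in every alternative run. The count of proteasome genes called lower was 14; it was 34 on the deposited scaling (where 27.2% of all probe sets were called lower), 5 on the hybridisation controls (3.19%), 0 without the variance trend (0%), 7 with only the 2 groups compared in the fit (3.37%), and 0 to 8 with 1 of the 48 h arrays left out (0% to 3.96%). The count called higher was 1 on the hybridisation controls (8.95% of all probe sets). At 48 h 10 genes were called on the deposited scaling, all higher with IL-21 as were 9.34% of all probe sets, and 0 in the leave-one-out fits. With the replicate number as a block, 22 were called lower (13.4% of all probe sets) and 1, Psmb9, higher (11.5%) at 72 h; replicate differences of the 48 h groups correlated at 0.36 over probe sets, but only 2 pairs exist and the labels tie the numbers to no shared source. Where a count moved, the cause was not tested. The leave-one-out fits also held fewer arrays. Dim probe sets limit Psmc4, Psmd2 and the second probe set of Psmb5.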
